A study of Drosophila melanogaster with 4 samples.

Results

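The genes described here are those whose name in the deposited count table begins with PH4alpha, the alpha subunits of prolyl 4-hydroxylase in Drosophila melanogaster. There were 5 such genes among the 9931 of the table. They were PH4alphaSG1 (FBgn0051014), PH4alphaSG2 (FBgn0039779), PH4alphaEFB (FBgn0039776), PH4alphaMP (FBgn0026190) and PH4alphaPV (FBgn0051015). A further 3 genes of that name in the BDGP6 annotation, PH4alphaNE1, PH4alphaNE2 and PH4alphaNE3, had no row in the table and were not analysed here. All 8 lie on chromosome arm 3R.

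Total RNA of salivary glands was sequenced from larvae in the third instar, kept in an incubator at 25 °C. The wild-type group had 2 libraries, and its strain is not named in the labels. The other group had 2 libraries from larvae lacking JIL-1 (genotype JIL-1-/-, allele Z2), a chromosomal kinase of histone H3. The comparison of the genotypes asked which transcripts differ between glands with and without JIL-1, but strain and genotype are the same split here and cannot be told apart.

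Prolyl 4-hydroxylase works in the lumen of the endoplasmic reticulum, where it hydroxylates prolines of collagens and of other secreted proteins. The enzyme needs iron, oxygen, 2-oxoglutarate and ascorbate. Its alpha subunit carries the catalytic site and its beta subunit is protein disulfide isomerase, encoded in the fly by Pdi. Drosophila has a large family of alpha subunits, many in a cluster near the end of chromosome arm 3R, and several are named for where embryos express them: salivary gland (SG), embryonic fat body (EFB), mouth parts (MP) and proventriculus (PV). In the embryo, PH4alphaSG1 and PH4alphaSG2 act downstream of the gland transcription factors Fork head and Sage and are needed for a gland lumen of even width.

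The deposited counts summed to between 6222322 and 11369094 per library. The 7 listed glue genes, which mark the larval gland, held between 35.2% and 37.6% of the counts of every library. Among them Sgs1 was lower in JIL-1 null, with a log2 fold change of -1.25 ± 0.14 (SE; adjusted p = 0.00195 in the quasi-likelihood test of edgeR). The other 6 were not called, so that 14.3% were called, against 30.7% of all tested genes. Under 12 alternative ways of processing, Sgs1 passed as lower in 10. Sgs3, with a log2 fold change of 0.44 ± 0.15 (adjusted p = 0.0664 in the edgeR test), passed as higher in 7 of the 12. The rest passed in at most 2. The gland factor genes fkh, sage and CrebA had at least 991 counts in each library. The targeted gene JIL-1 had 597 and 608 counts in wild-type glands and 449 and 660 in JIL-1 null, a log2 fold change of -0.61 ± 0.12 (SE; adjusted p = 0.0147 in the quasi-likelihood test of edgeR). Without JIL-1 null library 1 or 2 that call was lost (adjusted p = 0.108 and 0.121 in the edgeR test). Counts over a whole gene are a limited check of a null allele, since they do not show which part of the gene the reads came from. The counts of the 2 libraries of each genotype differed beyond sampling. Chi-square over its degrees of freedom was 25.1 between the wild-type pair and 9.69 between the JIL-1 null pair. The labels do not say whether the libraries came from separate animals, so p-values reflect the spread among the libraries alone. That spread may be technical.

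In JIL-1 null glands PH4alphaSG1 was 17.6-fold higher than in wild type, PH4alphaMP 3.17-fold higher and PH4alphaSG2 2.89-fold higher. The rise of PH4alphaMP is uncertain, because its exons overlap those of PH4alphaSG2. PH4alphaEFB stood lower, at 0.702 of its wild-type level, and did not pass the test. PH4alphaPV was below the limit of detection in 3 of the 4 libraries. Levels below are CPM, the usual depth-scaled count unit, computed with TMM-corrected library sizes, unless reads per kilobase are named. Log2 fold changes are given as JIL-1 null against wild type, with standard errors.

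**Figure D1:**
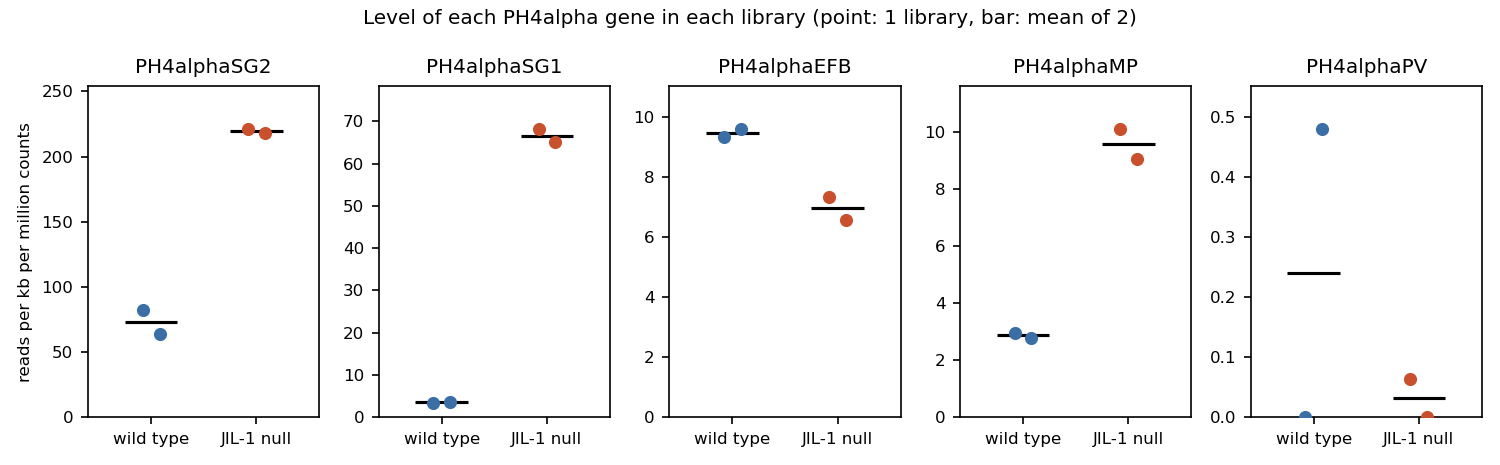
Level of each PH4alpha gene in each library, in reads per kilobase (scaled to library depth) on linear axes that start at 0 and differ between panels. Points are libraries and bars are means of the 2 libraries of a genotype; PH4alphaSG1, PH4alphaSG2 and PH4alphaMP are higher in both JIL-1 null libraries and PH4alphaEFB is lower in both.

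PH4alphaSG1, one of the pair of alpha subunits named for the salivary gland, had 5.79 and 6.83 CPM in wild type libraries 1 and 2 and 117 and 107 CPM in JIL-1 null libraries 1 and 2. The values behind these are 37 and 54 counts in wild-type glands and 945 and 1270 in JIL-1 null. The genotypes did not overlap, and the lowest JIL-1 null library was far above the highest wild-type one. The means were 6.31 ± 0.737 and 112 ± 6.73 CPM (SD, n = 2 each). The log2 fold change was 4.14 ± 0.14, with adjusted p = 0.0001 in the quasi-likelihood test of edgeR, Benjamini-Hochberg adjusted over all 7958 genes tested. PH4alphaSG1 held rank 45 of 7958 by log2 fold change, and rank 20 of the 6228 tested genes whose mean reached 5 CPM.

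PH4alphaSG2, the other gland-named subunit, had 135 and 117 CPM in wild-type glands and 373 and 355 CPM in JIL-1 null, from 864, 922, 3023 and 4204 counts. Its lowest JIL-1 null value was again above both wild-type values, and in every library it was the most abundant PH4alpha gene. The means were 126 ± 13.1 and 364 ± 13.1 CPM (SD, n = 2 each), with a log2 fold change of 1.53 ± 0.12 and adjusted p = 0.00069 by the same edgeR test. It held rank 283 of 7958 by log2 fold change. PH4alphaSG2 thus began from a wild-type level that was high for the family, and PH4alphaSG1 from a low one.

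PH4alphaMP, named for embryonic mouth parts, had 5.47 and 5.69 CPM in wild-type glands and 19.1 and 16.5 CPM in JIL-1 null, from 35, 45, 155 and 195 counts. The genotypes did not overlap. Its log2 fold change was 1.67 ± 0.18 (adjusted p = 0.00173 by the edgeR test). PH4alphaMP and PH4alphaSG2 are neighbours on opposite strands in the BDGP6 annotation and their exons overlap. Whether the counting used strand is not given in the sources used here, and without strand the reads of the shared stretch cannot be told apart, so the level and the rise of PH4alphaMP are uncertain.

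PH4alphaEFB, the family member known for collagen IV modification in the fat body, had 20.5 and 23.3 CPM in wild-type glands and 16.5 and 14.3 CPM in JIL-1 null. Both JIL-1 null libraries were below both wild-type ones. The log2 fold change of -0.51 ± 0.16 missed the threshold (adjusted p = 0.0568 by the edgeR test). In 3 of 12 alternatives it passed, with adjusted p = 0.0465 with RLE size factors, 0.04 with limma-voom and 0.03 with the edgeR test without wild type library 1, and over the 12 the adjusted p ran from 0.03 to 0.292. The authors' deposited table gives PH4alphaEFB a fold of 0.763 and a false discovery rate of 0.0459.

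PH4alphaPV, named for the proventriculus, had 0 and 8 counts in wild-type glands and 1 and 0 in JIL-1 null. At these counts it did not enter the test. The ratio of pooled counts, wild type over JIL-1 null and scaled to library totals, was 10.6 with an exact 95% counting interval from 1.42 to 469, and all 8 wild-type counts came from library 2. A level of 3 counts, taken as the limit of detection per library, corresponds to between 0.253 and 0.469 CPM, and only wild type library 2 was above it. Intervals and limits of this kind cover counting error only.

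Of the 4 PH4alpha genes tested, 3 passed as higher and 0 as lower. The 3 include PH4alphaMP, whose rise is uncertain because its exons overlap those of PH4alphaSG2 on the other strand. Over all genes tested, 13.5% passed as higher and 17.2% as lower, or 1077 and 1369 genes, so that 44% of calls were higher; with upper quartile scaling 1690 rose and 1154 fell, and 59.4% of calls were higher. All 4 tested genes had no overlap between the genotypes, as had 70.3% of all tested genes. The 3 that rose did so under each of the 12 alternatives tried, with log2 fold changes from 4.03 to 4.27 for PH4alphaSG1, from 1.43 to 1.67 for PH4alphaSG2 and from 1.56 to 1.80 for PH4alphaMP. Their highest adjusted p were 0.00792, 0.0161 and 0.0179. The authors' deposited table gives folds of 19.2, 3.13 and 3.45 for the same genes, with false discovery rates of 0.000105, 0.000597 and 0.000988. By that table's rate 3 PH4alpha genes were higher at 0.05, where 22.6% of its 9931 genes were, and 4 were called in either direction, where 37.7% were.

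**Figure D2:**
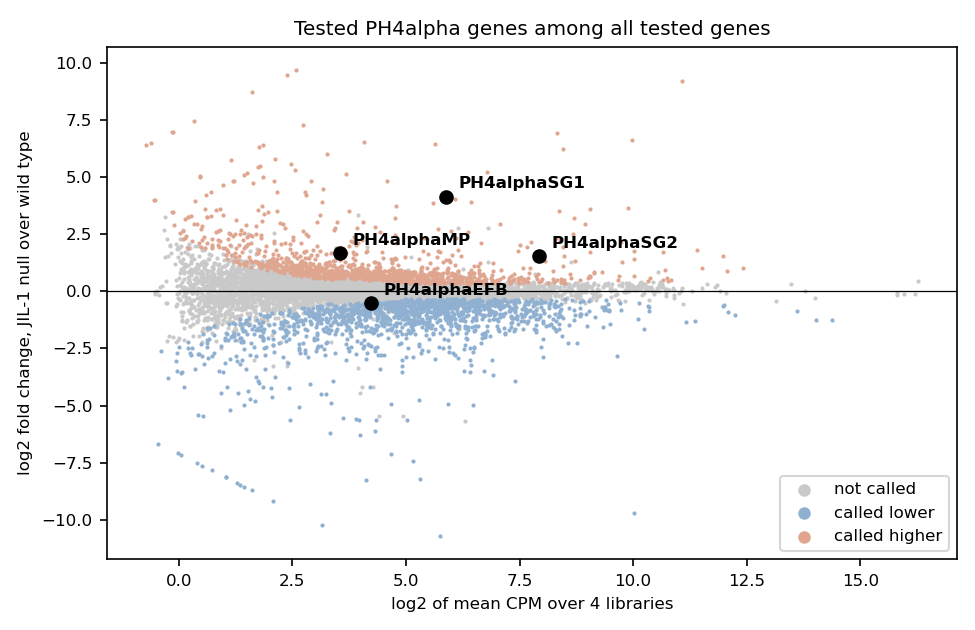
Log2 fold change, JIL-1 null over wild type, against log2 of the mean CPM over 4 libraries for the 7958 genes tested, coloured by call, with the 4 tested PH4alpha genes in black. PH4alphaSG1 lies at 4.14 among the largest increases, PH4alphaMP and PH4alphaSG2 at 1.67 and 1.53, and PH4alphaEFB at -0.51 just below the line of no change.

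Levels of different genes were compared per length, in reads per kilobase scaled to the depth of each library, with the gene lengths implied by the deposited RPKM. In wild type the order was PH4alphaSG2 at 73.1 ± 12.7, PH4alphaEFB at 9.44 ± 0.189, PH4alphaSG1 at 3.58 ± 0.169, PH4alphaMP at 2.88 ± 0.123 and PH4alphaPV at 0.24 ± 0.339 (SD, n = 2). In JIL-1 null it was PH4alphaSG2 at 220 ± 1.98, PH4alphaSG1 at 66.6 ± 2.21, PH4alphaMP at 9.6 ± 0.766, PH4alphaEFB at 6.96 ± 0.543 and PH4alphaPV at 0.0316 ± 0.0447. Neighbours in each order did not overlap between libraries, although with 2 libraries a genotype this order has no test. PH4alphaSG1 and PH4alphaMP therefore both stood below PH4alphaEFB in wild-type glands and above it in JIL-1 null. The place of PH4alphaMP is uncertain because of its overlap with PH4alphaSG2. Among all genes of the table, PH4alphaSG1 was above 52.6% in wild-type glands and above 94.9% in JIL-1 null by reads per kilobase. PH4alphaSG2 was above 95% and 97.9%.

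The 5 genes together had summed levels of 167 and 153 CPM in the wild-type libraries, against 526 and 493 CPM in the JIL-1 null ones. The family's make-up also differed between the genotypes. Of the summed reads per kilobase, PH4alphaSG2 held 83.9% and 79.5% in wild-type glands and 72.1% and 73% in JIL-1 null. The share of PH4alphaSG1 was 3.54% and 4.59% in wild type against 22.2% and 21.7% in JIL-1 null, and that of PH4alphaEFB was 9.52% and 11.9% against 2.39% and 2.2%. PH4alphaMP held between 3.03% and 3.47% in all 4 libraries.

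Ratios of counts within a library do not depend on scaling between libraries. PH4alphaSG1 had 4.28% and 5.86% of the counts of PH4alphaSG2 in wild type libraries 1 and 2, with exact 95% counting intervals from 2.99% to 5.95% and from 4.37% to 7.71%. In JIL-1 null it had 31.3% and 30.2%, with intervals from 29% to 33.6% and from 28.3% to 32.2%. The gland pair was thus at a more even ratio in both JIL-1 null libraries, by 2.62 on the log2 scale or 6.14-fold. The exact two-sided permutation test gave p = 0.333 (0.5 after Benjamini-Hochberg adjustment over the 3 ratios computed), and 0.333 is the smallest p that 2 libraries against 2 allow.

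The ratio of PH4alphaMP to PH4alphaSG2, its overlapping neighbour, was 4.05% and 4.88% in wild-type glands and 5.13% and 4.64% in JIL-1 null. All 4 counting intervals overlapped, the widest running from 2.8% to 5.68% and from 3.53% to 6.58% in wild type. The genotypes differed by 0.13 on the log2 scale (exact two-sided permutation p = 0.667, adjusted p = 0.667), against SDs of 0.19 and 0.10 within them. PH4alphaMP counts thus moved with PH4alphaSG2 counts in every library, and what part of them came from the overlap was not tested. PH4alphaEFB, which has no such overlap with PH4alphaSG2, had 15.2% and 20% of its counts in wild-type glands and 4.43% and 4.02% in JIL-1 null (exact two-sided permutation p = 0.333, adjusted p = 0.5).

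**Figure D3:**
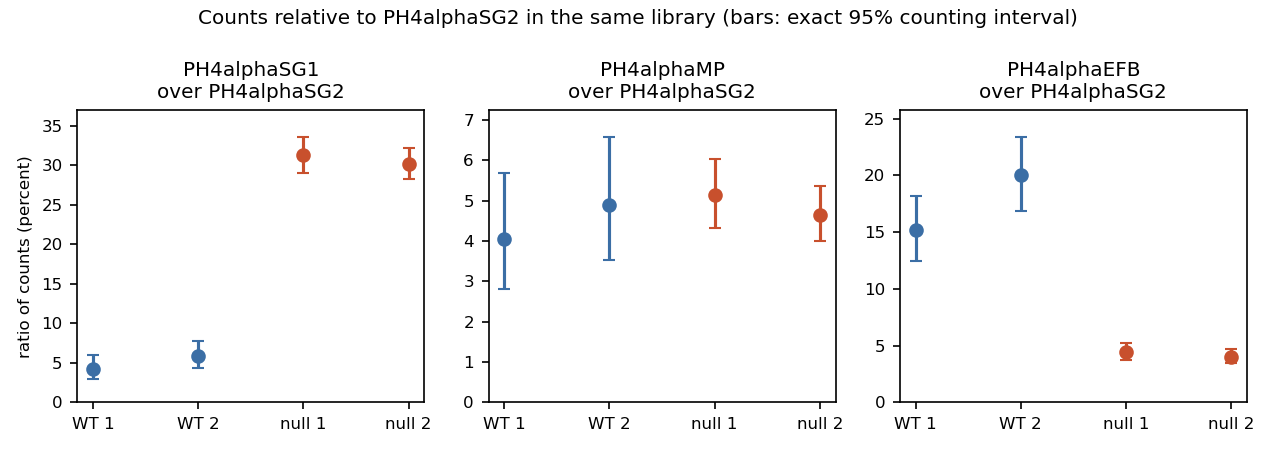
Counts of PH4alphaSG1, PH4alphaMP and PH4alphaEFB as a percentage of the PH4alphaSG2 counts of the same library, with exact 95% counting intervals, for wild type (WT) and JIL-1 null (null) libraries 1 and 2. The PH4alphaSG1 ratio is near 30.2% to 31.3% in JIL-1 null against 4.28% and 5.86% in wild type, the PH4alphaMP ratio stays between 4.05% and 5.13%, and the PH4alphaEFB ratio is lower in JIL-1 null.

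The genes sit near one another on arm 3R. In the BDGP6 annotation 29 protein-coding genes run from PH4alphaEFB to PH4alphaPV, of which 17 had a row in the table and 8 could be tested. Next to PH4alphaSG2 lie the serine protease gene Jon99Fi, which has a close copy, Jon99Fii, that may share its reads, with 16 and 1 counts in wild-type glands and 7 and 10 in JIL-1 null, and PH4alphaMP. PH4alphaSG1 lies between 2 relatives known only by a number. CG31371 had 0 and 1 counts in wild-type glands and 3 and 3 in JIL-1 null. CG15539, which starts on the opposite strand next to PH4alphaSG1, had 18 and 18 counts in wild-type glands and 8 and 9 in JIL-1 null. Of the genes beside PH4alphaSG1, CG15539 thus had lower counts in JIL-1 null and CG31371 at most 3 counts in a library.

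CG15539 was the 1 tested gene of 18 listed relatives without a PH4alpha name, of which 4 had a row. It passed as lower with a log2 fold change of -1.54 ± 0.46 and adjusted p = 0.0488 by the edgeR test, but in only 2 of 11 alternatives, with adjusted p from 0.0461 to 0.287. Of the other 3 with a row, CG9698 and CG15864 had at most 7 counts in a library, and the counts of CG31371 are given above. Of the 4 tested genes of this stretch that are not PH4alpha genes, CG15539 was the only one called. Over all tested genes 30.7% were called. The tropomodulin gene tmod had a log2 fold change of 0.06 ± 0.17, CG2246 one of 0.12 ± 0.11 and jdp one of 0.45 ± 0.27, none of which passed (adjusted p = 0.823, 0.445 and 0.246 by the edgeR test).

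**Figure D4:**
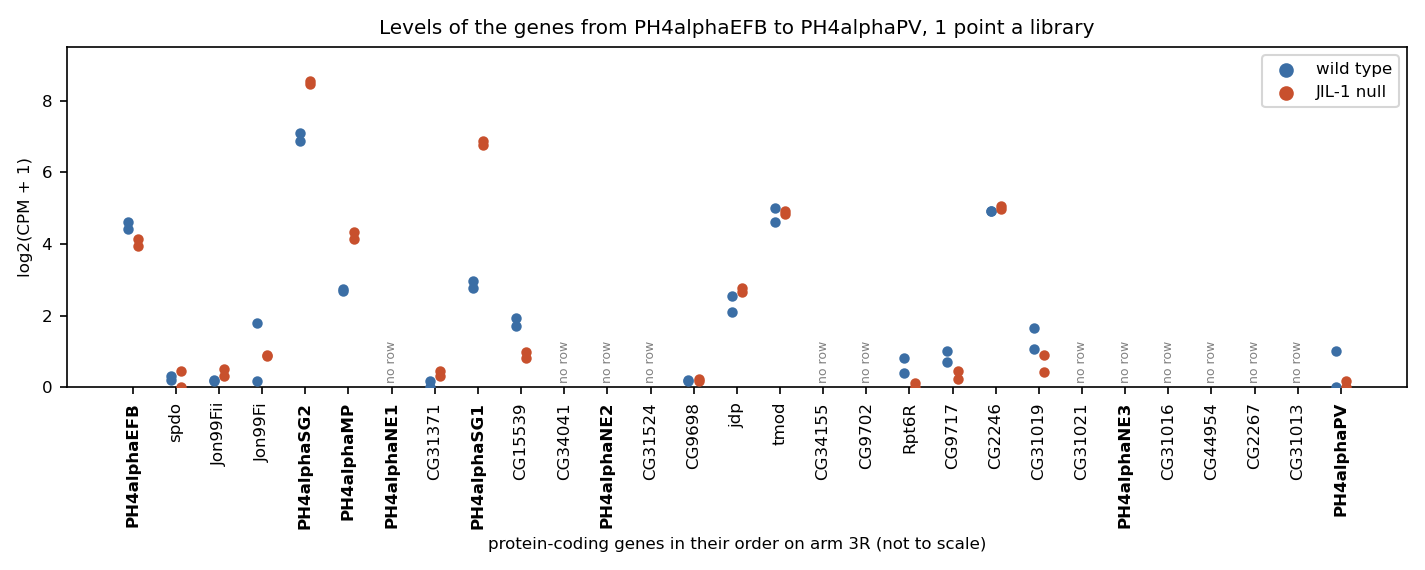
Level, as log2(CPM + 1), of the 29 protein-coding genes from PH4alphaEFB to PH4alphaPV in their order on arm 3R in the BDGP6 annotation, not to scale, with PH4alpha genes in bold and 1 point a library. Genes without a row in the table are marked; PH4alphaSG2, PH4alphaMP and PH4alphaSG1 are higher in JIL-1 null, while tmod and CG2246 are at similar levels in both genotypes.

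The beta subunit gene Pdi passed the test in neither direction. It had 4237 and 3377 CPM in wild-type glands and 3759 and 3930 CPM in JIL-1 null, so the JIL-1 null values lay between the wild-type ones. Its log2 fold change was 0.01 ± 0.15 (adjusted p = 0.956 by the edgeR test), and it passed in 0 of 12 alternatives. In every library Pdi was more abundant than the PH4alpha genes together. Per length it stood at 1077 and 778 reads per kilobase in wild-type glands and 933 and 1013 in JIL-1 null. The summed PH4alpha values were 97.7 and 80.6 in wild-type glands and 307 and 299 in JIL-1 null.

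Genes of thiol and disulfide chemistry in the endoplasmic reticulum, Pdi among them, were measured as a list of 10, of which 9 were tested. They gave 4 higher, 2 lower and 3 not called, or 66.7% called, where 30.7% of all tested genes were called. The list had a median log2 fold change of 0.10, and all tested genes had one of 0.03. CG4670 (Qsox1, a sulfhydryl oxidase that makes disulfides) rose from 14.1 and 15.8 CPM in wild type to 86.8 and 59.4 CPM in JIL-1 null, a log2 fold change of 2.28 ± 0.21 (adjusted p = 0.00107 by the edgeR test). ERp60, a disulfide isomerase of the lumen, rose from 1258 and 1039 CPM to 2184 and 2187 CPM, with a log2 fold change of 0.93 ± 0.14 (adjusted p = 0.00532).

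The other 2 genes of that list that passed as higher rose by less. CaBP1 and CG9302 had log2 fold changes of 0.65 ± 0.13 and 0.72 ± 0.18. The 2 that fell were CG5554, at -0.74 ± 0.11, and CG5027 (Tmx3, a membrane-bound thioredoxin-related gene), at -1.17 ± 0.22. Without JIL-1 null library 1, and likewise without library 2, the edgeR test called only CG4670 of this list.

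Collagen IV is the best-known substrate of the enzyme in the fly. Its chain genes Cg25C and vkg stood higher in both JIL-1 null libraries, at 171 and 209 CPM against 127 and 160 for Cg25C and at 81 and 109 CPM against 61.5 and 72.2 for vkg. The log2 fold changes of 0.41 ± 0.16 and 0.51 ± 0.17 did not pass (adjusted p = 0.0986 and 0.0664 by the edgeR test). With upper quartile scaling, under which the median over all genes was 0.17 on the log2 scale in place of 0.03, both passed (adjusted p = 0.0327 and 0.0249), as did vkg with library totals only (0.0468) and Cg25C without wild type library 2 (0.0392), and under the 12 alternatives the adjusted p lay between 0.0327 and 0.495 for Cg25C and between 0.0249 and 0.397 for vkg.

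Of the 7 tested genes of collagen and its handling, 0 rose and 2 fell in the main edgeR test (28.6% called, against 30.7% of all tested genes; median log2 fold change 0.02, against 0.03). BM-40-SPARC, which encodes a collagen-binding protein of basement membranes, fell from 119 and 130 CPM to 33.5 and 35.7 CPM, a log2 fold change of -1.84 ± 0.11 (adjusted p = 0.000356). The collagen-like gene prc had 16 and 18 counts in wild-type glands and 1 and 6 in JIL-1 null, with a log2 fold change of -2.75 ± 0.66 (adjusted p = 0.0261). That call was lost when any 1 library was left out, with adjusted p between 0.0626 and 0.152. At an unadjusted p under 0.05 the list had 2 higher genes, and with upper quartile scaling 2 rose and 2 fell.

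Among 4 listed genes of other hydroxylases and of iron supply, 3 were tested and 1 rose (33.3% called, against 30.7% of all tested genes). Hph, which encodes the prolyl hydroxylase that acts on the hypoxia factor Sima in the cytoplasm, rose from 30.5 and 30 CPM to 42 and 40.9 CPM, a log2 fold change of 0.45 ± 0.10 (adjusted p = 0.0184 by the edgeR test). It did not pass with DESeq2 (adjusted p = 0.121) or without JIL-1 null library 1 or 2 (adjusted p = 0.174 and 0.199). Its increase was smaller than those of the gland PH4alpha genes.

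The factors known to act upstream of PH4alphaSG1 and PH4alphaSG2 in the embryo did not pass as higher with them. The forkhead factor gene fkh had 161 and 125 CPM in wild-type glands and 167 and 183 CPM in JIL-1 null, a log2 fold change of 0.29 ± 0.15 that did not pass (adjusted p = 0.18 by the edgeR test; 0.0236 without wild type library 1, and 0.6 at most over 12 alternatives). The basic helix-loop-helix factor gene sage fell from 868 and 784 CPM to 517 and 617 CPM, with a log2 fold change of -0.54 ± 0.14 and adjusted p = 0.0295. That call was lost with upper quartile scaling (adjusted p = 0.0589), with library totals only (0.0614) and without JIL-1 null library 1 or 2 (0.26 and 0.114).

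Of 9 tested gland factor genes, 0 rose and 2 fell (22.2% called, against 30.7% of all tested genes; median log2 fold change -0.17, against 0.03). The other that fell was eyg, a Pax family factor gene, at -0.50 ± 0.12 (adjusted p = 0.0273); that call was lost with upper quartile scaling (adjusted p = 0.0542) and without wild type library 2, JIL-1 null library 1 or JIL-1 null library 2 (0.066, 0.0985 and 0.192). Without wild type library 1, 3 of the 9 passed as higher and 2 as lower. In the main edgeR test 0 of the 9 rose at an unadjusted p under 0.05, and DESeq2 and limma-voom also called 0 higher.

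**Figure D5:**
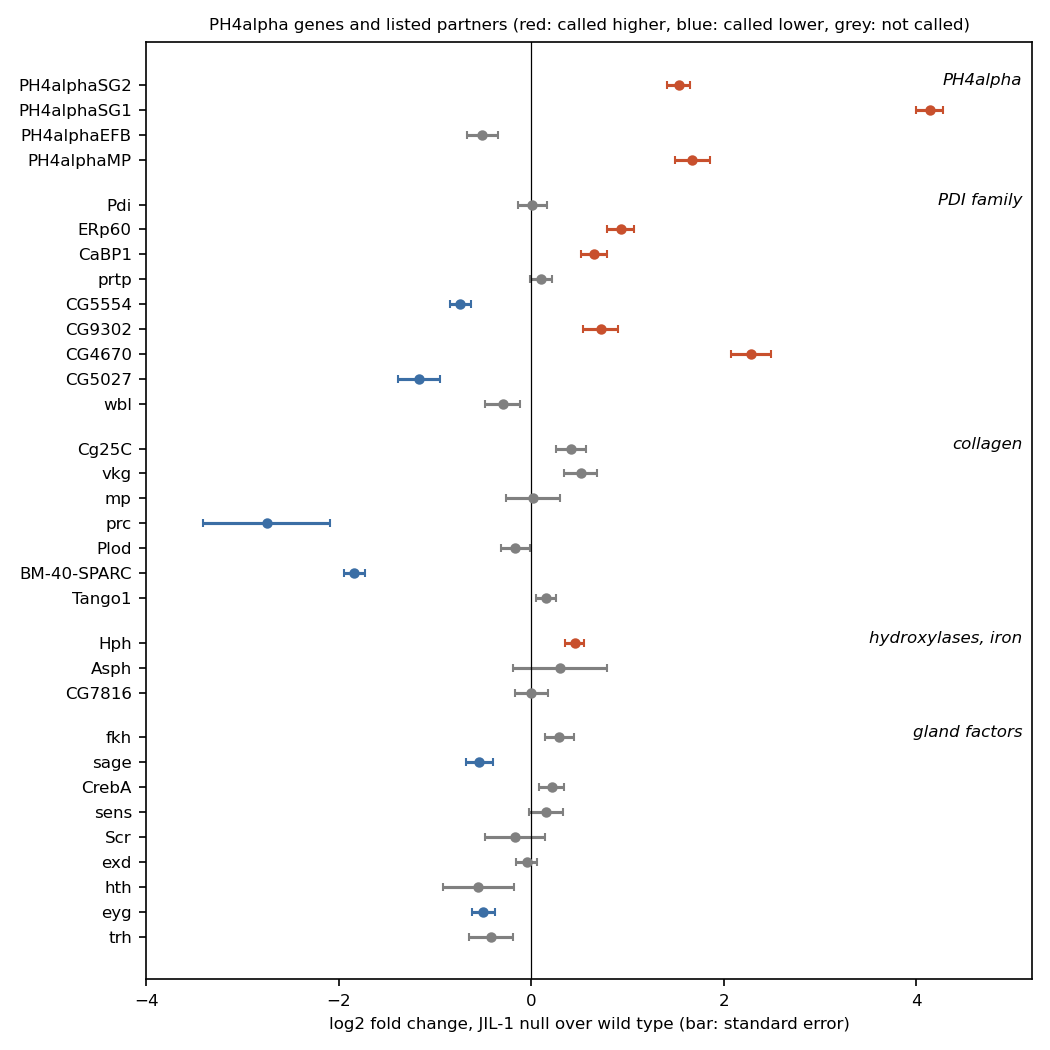
Log2 fold change with standard error, JIL-1 null over wild type, of the 4 tested PH4alpha genes and of the tested genes of 4 lists, the disulfide isomerase family (PDI), collagen and its handling, other hydroxylases with iron supply, and gland factors. Genes called higher are red, genes called lower blue and others grey; Pdi and fkh lie at 0.01 and 0.29, and PH4alphaSG1 at 4.14 is the highest of those drawn.

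Markers of other larval tissues were present, and within each list of fat body and muscle genes some rose while others fell. The 8 listed fat body genes, all in the table, summed to 57238 and 68170 CPM in the wild-type libraries and to 38402 and 38390 CPM in the JIL-1 null ones. Of them 1 was called higher, 5 lower and 2 not called, or 75% called, against 30.7% of all tested genes. Lsp1gamma, which encodes a larval serum protein, rose from 7.35 and 7.59 CPM to 3891 and 4770 CPM, a log2 fold change of 9.18 ± 0.21 (adjusted p = 6.17e-05 by the edgeR test). Fbp2 and the lipid droplet gene Lsd-1 fell, each with a log2 fold change of -1.65 (SE 0.14 and 0.17). Lsp1alpha, with a log2 fold change of -0.09, was not called and passed in 0 of 12 alternatives. Lsp1beta, at -0.41, was not called (adjusted p = 0.0581 by the edgeR test) but passed as lower in 7 of the 12. PH4alphaEFB, named for the embryonic fat body, was not called either, and a link to these markers was not tested.

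The 8 muscle genes summed to 148 and 93.8 CPM in the wild-type libraries and to 93.9 and 85.4 CPM in the JIL-1 null ones. Among these genes 1 was called higher, 2 lower and 5 not called, or 37.5% called, against 30.7% of all tested genes. The myosin light chain gene Mlc1 rose from 5.63 and 4.43 CPM to 33.5 and 36.7 CPM, a log2 fold change of 2.81 ± 0.18 (adjusted p = 0.000446 by the edgeR test). The troponin C gene TpnC73F fell by 2.50 on the log2 scale (SE 0.20). Mlc2, at -0.99 ± 0.24, no longer passed without JIL-1 null library 1 or 2 (adjusted p = 0.123 and 0.167 by the edgeR test).

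The 7 haemocyte markers summed to 122 and 124 CPM in the wild-type libraries and to 78.8 and 76 CPM in the JIL-1 null ones. Most of each sum came from crq and srp, so it says little about the other markers. Their means were 73.9 and 42.3 CPM in wild type and 58.1 and 18.2 CPM in JIL-1 null. All 3 markers that were tested passed as lower in the main edgeR test, where 17.2% of all tested genes did. Under the alternatives srp passed in 12 of 12, Hml in 8 of 11 and crq in only 4 of 12. Hml had 23 and 18 counts in wild-type glands and 2 and 6 in JIL-1 null. The log2 fold changes of srp and crq were -1.22 ± 0.13 and -0.35 ± 0.09 (adjusted p = 0.00198 and 0.0368 by the edgeR test). Of the defining ones, eater had 0 counts in JIL-1 null library 1 and nimC1 had 0 in JIL-1 null library 2, and neither had more than 8 in any library. The part of these tissues in the levels of the PH4alpha genes was not tested. In such bulk samples fewer cells of a type and less RNA per cell cannot be told apart.

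The genes whose pattern was nearest to each gland gene were found by the Euclidean distance between log2(CPM + 1) profiles, centred per gene over the 4 libraries, among the 6228 tested genes whose mean reached 5 CPM. For PH4alphaSG1 they were mthl8, CG15546, CG12125 (Miga), Elo68alpha and CG33998, at distances from 0.334 to 0.400, where the median gene stood at 3.955. The receptor gene mthl8 and the fatty acid elongase gene Elo68alpha had at most 1 count in a wild-type library. CG15546 had 0 and 4 counts there, or 0 and 0.506 CPM. The added 1 CPM thus largely sets the profiles of mthl8, Elo68alpha and CG15546. CG33998 had 5.63 and 6.58 CPM in wild-type glands and 81 and 99 CPM in JIL-1 null, near the CPM of PH4alphaSG1 itself. Per length it stood higher, at means of 10 and 156 reads per kilobase in wild type and JIL-1 null. PH4alphaSG1 had 3.58 and 66.6.

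For PH4alphaSG2 the nearest were CG34398, CG17664 (Eglp2), CR43470, Baldspot and jp, at distances from 0.069 to 0.179 against a median of 1.553. Baldspot encodes a fatty acid elongase and jp encodes junctophilin, while CR43470 is annotated as an antisense RNA whose reads cannot be separated without strand. PH4alphaMP came at place 8, with a distance of 0.206. These are likenesses over 4 libraries of 2 genotypes, in which any gene that rose by the same amount with a small spread would be near. From PH4alphaSG1, PH4alphaMP stood at a distance of 2.445.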

How the data were processed

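The members, gene lists and comparisons were chosen with earlier results of these data known. Per the submitters' processing notes, GSNAP was the aligner and the builds named are BDGP5 and dm3; which counter, annotation, strand setting or filters were used is not given in the sources used here. The analysis rests on 1 table, with raw counts per gene for each library as deposited. Beside these the authors deposited, for each gene, an RPKM per genotype, their fold or ratio, and a p-value with its false discovery rate, from a test they do not name in it. The lowest total of a gene was 3 counts. The available annotation (BDGP6.54) is of another build, so it served only for names, order, strand and overlap; 9523 of 9931 identifiers matched.

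The test of counts was that of edgeR 4.0.16, run in R 4.3.3 (quasi-likelihood, two-sided, TMM factors from 0.931 to 1.042), on the 7958 genes that filterByExpr kept (minimum count 10, minimum total 15). Benjamini-Hochberg adjustment ran over all of them, with calls at 0.05. The common biological coefficient of variation came to 14.9% on 2 residual degrees of freedom. Standard errors came from the F statistic, and fitted changes use a prior count of 0.125. Library totals ran from 6222322 to 11369094 counts. The deposited RPKM equal the mean of per-library values to within 0.995 to 1.003 of a constant length over 2620 genes with at least 200 counts in each library, so that length gave reads per kilobase for each library. The alternatives were RLE, upper quartile and no scaling factors, DESeq2 1.42.0, limma-voom (limma 3.58.1), other filters, the replicate number as a block and each library left out. The procedure was tested on simulated data. The text names all members, tested relatives, neighbours of the gland genes, the nearest genes by distance, and of each partner list the 2 higher and 2 lower called genes of smallest adjusted p, with fkh, sage, Pdi, Cg25C and vkg; CaBP1, CG9302, jdp, tmod, CG2246 and the untested relatives were added after their values were seen. Marker lists are given by their sums, with called members by the same rule. From these lists crq, Lsp1alpha, Lsp1beta and Sgs3 were added after their values were seen.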

Additional observations from a re-analysis of the deposited data

How the results depend on the processing

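The 3 higher and 0 lower calls among PH4alpha genes were recomputed under 12 alternatives: 3 genes rose in each, and 1 fell with RLE size factors and with limma-voom, where PH4alphaEFB passed. Leaving out each library in turn gave 3 higher and from 0 to 1 lower. Over all genes those ranges were 195 to 1185 higher, the lowest without JIL-1 null library 2 and the next, 282, without JIL-1 null library 1, and 524 to 1610 lower; DESeq2 called 587 higher and upper quartile scaling 1690. Among collagen genes 2 rose with upper quartile scaling, 1 with library totals only and 1 with the replicate block, and 1 fell at a mean of at least 5 CPM, where fewer genes are tested. Among gland factors 0 fell with upper quartile scaling and 1 with library totals only. Among other hydroxylases 0 rose with DESeq2. With a library left out, disulfide isomerase genes gave 1 to 4 higher and 0 to 2 lower, collagen genes 0 to 1 higher and 1 lower, other hydroxylases 0 to 2 higher, and gland factors 0 to 3 higher and 0 to 2 lower. The log2 difference of the PH4alphaSG1 to PH4alphaSG2 ratio ran from 2.39 to 2.84. Pdi, close to 0, turned to -0.01 with RLE factors and with DESeq2 and ran from -0.14 to 0.18 with a library left out, and tmod ran from -0.15 to 0.28. The causes were not tested. Same-numbered libraries did not deviate together (correlation of deviations -0.078), so the numbers were not taken as pairs; with the replicate block 961 genes rose and 1300 fell, with 3 higher and 0 lower PH4alpha genes, and vkg passed as higher (adjusted p = 0.0275 by edgeR) while CG15539 no longer passed (0.0655). With exon lengths of the BDGP6 annotation, chosen after seeing the data, PH4alphaSG1 stayed at 30.3% of PH4alphaSG2 per length in JIL-1 null; protein lengths were not run. Of 512 single-gene values recomputed, 454 kept their direction and side of the threshold, 43 no longer passed, 9 newly passed and 6 changed sign. The measurement of PH4alphaPV is limited by depth.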
